A study of Mus musculus with 5 samples.

Results

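The Adam genes encode membrane-anchored proteins with a metalloprotease and a disintegrin domain. Members were all rows of the array whose RefSeq transcript belongs to a mouse gene named Adam plus a number and at most one letter, leaving out the secreted Adamts family and Adamdec1. This gave 34 genes on 37 rows, of 17277 named genes on 25631 rows, and every Adam symbol of the RefSeq table had a row. By what is known of the mouse genes, 21 were classed as testis members, 2 (Adam7 and Adam28) as epididymis members and 11 as broadly expressed or somatic members. Adam15, Adam22 and Adam28 had more than 1 row, and each of these genes was represented by its brightest row on average.

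Whole testes of male mice at postnatal day 9 were profiled, and the design set testes with a conditional deletion of Dmrt1 against control testes. Dmrt1 encodes a DM-domain transcription factor of germ cells and Sertoli cells. The groups were Cre-positive Dmrt1 KO testes with DHH-cre (1 array), Cre-positive Dmrt1 KO testes with NGN-cre (3 arrays), and a Cre-negative control labelled NGN-cre (1 array), and the labels do not say whether the arrays stand for separate animals or pools. The labels name the drivers only as DHH-cre and NGN-cre. As background, Dhh is transcribed in Sertoli cells and Neurog3 in spermatogonia. A gene targeted by Cre stays intact in cells where the driver was never on, in them or in their precursors.

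ADAM proteins are made as precursors whose prodomain is removed on the way to the cell surface. Some, such as ADAM10 and ADAM17, are proteases that release growth factors, cytokines and receptor ectodomains from the membrane. In many others the catalytic zinc site is lost, and the protein acts in adhesion. The mouse genome has a large set of Adam genes used almost wholly by male germ cells. Their products, among them ADAM2 (fertilin beta) and ADAM3 (cyritestin), are made in spermatocytes and spermatids and sit on sperm, where ADAM2 and ADAM3 are needed for sperm to pass from the uterus into the oviduct. In the first wave of mouse spermatogenesis, day 9 lies at the start of meiosis, before spermatids exist.

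The deposited intensities were similar in distribution, with array medians between 721.2 and 730.1. Across all rows, Pearson's r of log2 values was 0.974 to 0.981 for pairs with the DHH-cre array and 0.986 to 0.993 for the remaining pairs. The labels give the DHH-cre array a number far from those of the other 4, and a difference tied to that array cannot be told apart from the genotype in any value below. Dmrt1 itself had log2 intensities of 12.65 in the DHH-cre KO, 12.25, 12.46 and 12.43 in the NGN-cre KOs and 13.53 in the control, so it was lower in all knockout arrays than in the control. The sources used here do not say whether its probes lie in the deleted part. All markers on the lists for Sertoli cells (10 of 10), Leydig cells (7 of 7) and meiotic prophase (9 of 9) lay above 8.34 on every array. That value is the 95th percentile of log2 intensity over 1064 olfactory receptor transcripts, genes with little transcription in testis, and it serves here with their median, 5.24, as a guide to background. The spermatid list had 0 of 11 markers above 8.34 on all arrays.

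The Adam classes lay at different distances from that background. Of the 11 broad or somatic members, 9 lay above 8.34 on all 5 arrays, and none lay below 5.24 on any. Of the 21 testis members, 1 lay above 8.34 on all 5 arrays (Adam29), 6 lay below 5.24 on all 5 (Adam6a, Adam6b, Adam20, Adam24, Adam25 and Adam34), and 8 lay below it in the control. A log2 fold of a transcript at that level is uncertain in size, and absence of RNA cannot be read from it. Of the epididymis members, neither lay above 8.34 on all arrays or below 5.24 on all.

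**Figure D1:**
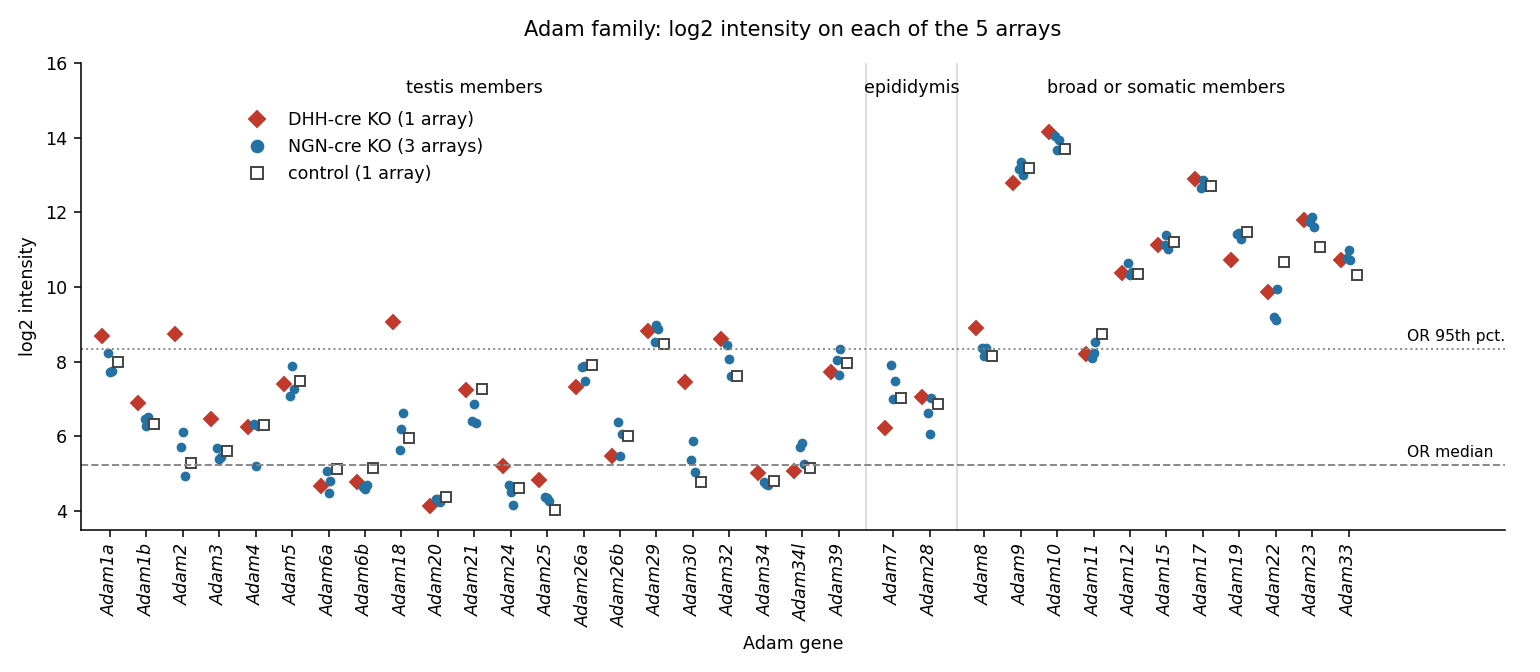
Log2 intensity (y axis) of the 34 Adam genes (x axis) on each array, with DHH-cre KO as diamonds, NGN-cre KO as filled circles and the control as open squares; the dashed and dotted lines are the median (5.24) and 95th percentile (8.34) of olfactory receptor (OR) transcripts. Broad or somatic members sit mostly above both lines, and Adam2, Adam18 and Adam30 show the DHH-cre diamond apart from the other 4 arrays.

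Where a promoter sequence was at hand, the classes also differ at their start sites, which the choice of members did not use. RefSeq promoter windows of assembly GRCm38.p6, from 250 bases before to 50 bases after the start of the gene, were at hand for 11 of 21 testis members and 7 of 11 broad or somatic members (9 windows, since Adam19 has 3). No window was at hand for Adam2, Adam18, Adam30 or Adam32. They are shown because CpG dinucleotides, which are dense at many widely used promoters and scarce elsewhere in the mouse genome, differ in number between the classes in these windows. The first 2 sequences are those of the sheddase genes Adam10, at chr9:70678732-70679031 (+ strand), and Adam17, at chr12:21373583-21373882 (- strand). The other 3 are those of the testis member Adam1a, at chr5:121521646-121521945 (- strand), and of the adjacent testis members Adam25, at chr8:40751958-40752257 (+ strand), and Adam20, at chr8:40793023-40793322 (+ strand). Each is written 5′ to 3′ on the gene's strand, and capitals mark CpG.
Adam10: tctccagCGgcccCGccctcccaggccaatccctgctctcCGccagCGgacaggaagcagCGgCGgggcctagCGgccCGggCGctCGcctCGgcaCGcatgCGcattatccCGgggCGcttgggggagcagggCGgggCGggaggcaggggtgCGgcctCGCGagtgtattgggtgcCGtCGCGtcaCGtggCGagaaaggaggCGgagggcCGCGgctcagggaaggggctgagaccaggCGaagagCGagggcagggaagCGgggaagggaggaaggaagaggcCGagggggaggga
Adam17: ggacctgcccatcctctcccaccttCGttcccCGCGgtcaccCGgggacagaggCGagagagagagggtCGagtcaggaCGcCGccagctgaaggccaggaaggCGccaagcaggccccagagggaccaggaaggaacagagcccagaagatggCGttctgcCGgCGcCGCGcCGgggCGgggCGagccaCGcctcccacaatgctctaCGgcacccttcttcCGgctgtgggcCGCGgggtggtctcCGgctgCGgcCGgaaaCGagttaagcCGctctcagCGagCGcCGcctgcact
Adam1a: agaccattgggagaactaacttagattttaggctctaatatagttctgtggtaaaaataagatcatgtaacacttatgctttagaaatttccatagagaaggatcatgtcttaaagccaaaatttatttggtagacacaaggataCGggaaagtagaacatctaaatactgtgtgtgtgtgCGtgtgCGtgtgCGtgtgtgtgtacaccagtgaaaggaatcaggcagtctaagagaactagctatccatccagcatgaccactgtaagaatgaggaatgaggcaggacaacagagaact
Adam25: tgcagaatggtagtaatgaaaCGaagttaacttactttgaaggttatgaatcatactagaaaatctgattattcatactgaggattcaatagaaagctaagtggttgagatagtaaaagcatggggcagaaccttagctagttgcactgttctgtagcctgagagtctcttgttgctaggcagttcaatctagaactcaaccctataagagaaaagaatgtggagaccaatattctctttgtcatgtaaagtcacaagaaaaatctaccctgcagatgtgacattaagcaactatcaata
Adam20: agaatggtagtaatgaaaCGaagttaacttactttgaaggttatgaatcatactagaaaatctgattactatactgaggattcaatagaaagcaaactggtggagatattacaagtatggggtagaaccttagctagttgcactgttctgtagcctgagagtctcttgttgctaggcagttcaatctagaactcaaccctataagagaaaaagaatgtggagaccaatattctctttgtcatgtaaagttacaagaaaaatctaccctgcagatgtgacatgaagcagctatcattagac

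The windows of Adam10 and Adam17 hold 32 and 30 CpG dinucleotides, that of Adam1a holds 4, and those of Adam25 and Adam20 hold 1 each. Over the testis members the count ran from 0 to 4 with a median of 1.0, and over the 9 broad or somatic windows from 5 to 32 with a median of 19.0, so the 2 classes did not overlap in these windows. The gap was small, with Adam1a at 4 beside Adam19 at 5 and Adam8 at 6. The median over all 32851 promoter windows was 7.0, with a range of 0 to 67. The share of all windows within the range of each class was not counted. How unusual these counts are therefore cannot be read from them. The windows of Adam25 and Adam20 match in 284 of 296 aligned bases, so these neighbours are close copies over that stretch. Their transcripts and probes were not compared, so whether the array tells the 2 genes apart was not tested. The letters ACATTGT, the core of the DMRT1 motif, searched on both strands, were in 0 of the 20 Adam windows and in 2.96% of all windows, which says only that these letters are not in these windows.

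**Figure D2:**
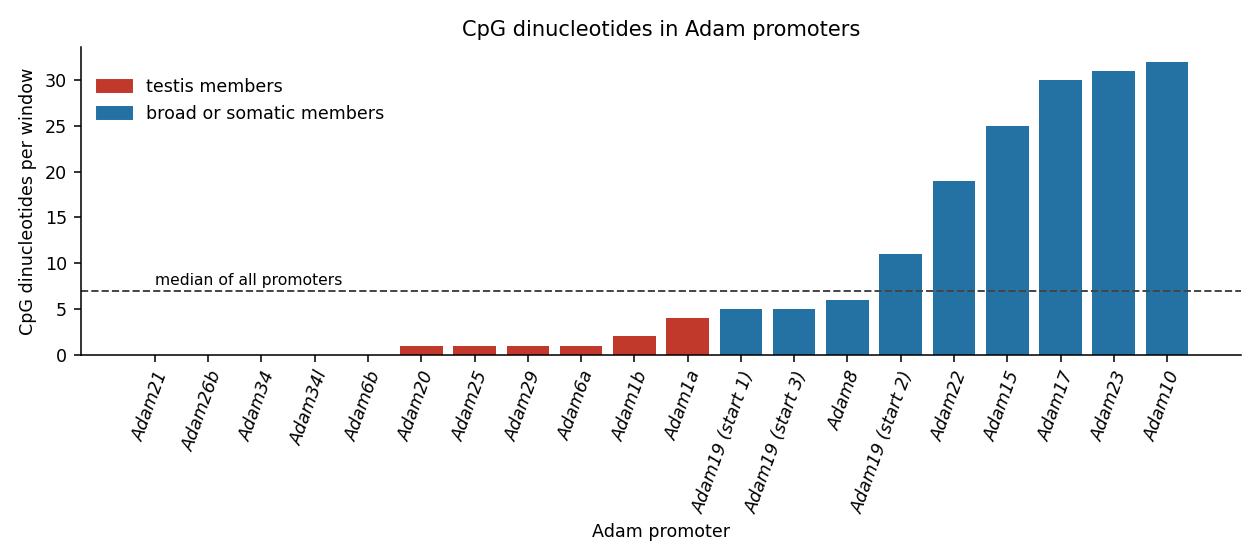
CpG dinucleotides (y axis, count per 300-base window from 250 before to 50 after the start) in the 20 Adam promoters at hand (x axis), testis members in red and broad or somatic members in blue. Testis members hold 0 to 4 and broad or somatic members 5 to 32, and the dashed line is the median of all promoters, 7.0.

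The first comparison set the DHH-cre KO array against the 3 NGN-cre KO arrays. Among the Adam genes, Adam2 and Adam18 were higher in the DHH-cre KO, and both encode sperm surface proteins of the testis class. Of the 34 members, 2 were called higher and 0 lower (limma, Benjamini-Hochberg adjusted p under 0.05 over all rows), against 0.273% of all 25631 transcripts called higher, 0.730% called lower and 1.00% called in either direction. The members were proposed with these values known, so the count is given as a description.

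Adam2, the beta subunit of fertilin, had a log2 intensity of 8.75 in the DHH-cre KO, against 5.71, 6.11 and 4.93 in the NGN-cre KOs (mean 5.58 ± 0.60, SD, n = 3) and 5.29 in the control. The DHH-cre value lay above all others, while the NGN-cre arrays lay on both sides of the control. The log2 difference from the NGN-cre KOs was 3.17 (SE 0.43; limma, Benjamini-Hochberg adjusted p = 0.0369). Its size is uncertain, since the NGN-cre values lie within the range of olfactory receptor transcripts, and with a pseudocount of 50 it was 2.27. On the linear scale these values are an intensity of 430 in the DHH-cre KO, against 30.5 to 69.0 in the NGN-cre KOs and 39.2 in the control.

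Adam18, also called tMDC III, encodes a catalytically inactive sperm protein. Its log2 intensity was 9.07 in the DHH-cre KO, against 5.63, 6.20 and 6.63 in the NGN-cre KOs (mean 6.15 ± 0.50, SD, n = 3) and 5.96 in the control. Again the DHH-cre array stood above the other 4, which overlapped. The log2 difference from the NGN-cre KOs was 2.92 (SE 0.38; limma, Benjamini-Hochberg adjusted p = 0.0328). Here too the NGN-cre values lie within the range of olfactory receptor transcripts, and with the pseudocount the difference was 2.27. Both calls were lost without NGN-cre replicate 1: the adjusted p = 0.0894 for Adam2 and the adjusted p = 0.0524 for Adam18 (limma), at log2 differences of 3.23 and 2.66. That fit called 38 of 25631 transcripts, against 257 with all arrays. Both calls were also lost with values floored at the olfactory receptor median, a setting that called 0 transcripts.

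Adam30, a testis member, had the next largest difference. Its log2 intensity was 7.45 in the DHH-cre KO, against 5.36, 5.86 and 5.05 in the NGN-cre KOs and 4.78 in the control. The DHH-cre value lay above the other 4, and the control lay below all NGN-cre arrays. The difference from the NGN-cre KOs was 2.03 (SE 0.33; limma, Benjamini-Hochberg adjusted p = 0.0513), so it missed the threshold. In 4 of 11 alternatives it passed (adjusted p from 0.0145 to 0.183), for instance without replicate 2 (adjusted p = 0.0306) or replicate 3 (adjusted p = 0.0148) of the NGN-cre KOs.

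The remaining testis members had log2 differences between -0.53 (Adam34l) and 0.96 (Adam3) from the NGN-cre KOs, none of which passed. These and the other genes named in this paragraph and in the account of chromosome 8 were singled out after their values had been seen. Adam3, whose protein is lost from sperm in many fertility mutants of the mouse, had 6.46 in the DHH-cre KO, against 5.68, 5.39 and 5.43 in the NGN-cre KOs and 5.61 in the control (limma, adjusted p = 0.106). Adam1a, which encodes the fertilin alpha chain that pairs with ADAM2 in the endoplasmic reticulum, had 8.69 in the DHH-cre KO, against 8.22, 7.71 and 7.75 in the NGN-cre KOs and 7.99 in the control (limma, adjusted p = 0.191). For its neighbour Adam1b, the fertilin alpha chain found on sperm, the difference was 0.46. In each of these 3 genes the DHH-cre array was the highest of the 5, by less than for Adam2 and Adam18.

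Taken by class, 14 of 21 testis members and 5 of 11 broad or somatic members had a higher value in the DHH-cre KO than the NGN-cre mean, with medians of 0.30 and -0.06, against 8620 of 17277 named genes. At an unadjusted p under 0.05 there were 7 of 21 testis members (33.3%), all higher, and 2 of 11 broad or somatic members (18.2%), 1 higher and 1 lower, against 18.3% of all transcripts (8.77% higher and 9.55% lower). The 15 measured Adamts genes, secreted relatives that cleave extracellular matrix, had a median of -0.31 with 0 called, and 2 without NGN-cre replicate 3 (Adamts7 and Adamts8). Leaving out that replicate gave 1321 calls over 25631 transcripts, against 257 with all arrays. The difference between classes was not tested.

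Of the broad or somatic members, 0 of 11 passed in this comparison, and their differences ran from -0.68 to 0.62. The lowest was Adam19, a protease that sheds neuregulins and acts in heart development, with 10.71 in the DHH-cre KO, against 11.43, 11.45 and 11.28 in the NGN-cre KOs and 11.46 in the control (limma, adjusted p = 0.169). The highest was Adam8, a protease of leukocytes, with 8.90 in the DHH-cre KO, against 8.36, 8.15 and 8.35 in the NGN-cre KOs and 8.16 in the control (limma, adjusted p = 0.209). In both genes the DHH-cre array lay outside the other 4.

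The sheddase genes differed by less. Adam10, which cleaves Notch receptors, had 14.15 in the DHH-cre KO, against 14.04, 13.66 and 13.94 in the NGN-cre KOs and 13.69 in the control. Adam17, which releases tumour necrosis factor and ligands of the epidermal growth factor receptor, had 12.90 in the DHH-cre KO, against 12.65, 12.86 and 12.72 in the NGN-cre KOs and 12.70 in the control. The DHH-cre array was the highest for both, by log2 differences of 0.27 (SE 0.24) and 0.15 (SE 0.22) from the NGN-cre mean, neither past the threshold (limma, adjusted p = 0.617 and adjusted p = 0.764).

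Adam7, made in the epididymis and passed to sperm there, was the one member at least 2-fold lower in the DHH-cre KO than the NGN-cre mean. It had 6.21 in the DHH-cre KO, against 7.91, 7.00 and 7.49 in the NGN-cre KOs and 7.01 in the control, and the DHH-cre array lay below the other 4. The difference of -1.25 (SE 0.35) did not pass (limma, adjusted p = 0.137). Of 9 epididymis markers, 2 were called lower in the DHH-cre KO than in the NGN-cre KOs, against 0.730% of all transcripts. These were Crisp1 at -5.98 and Spink8 at -4.04. The list as a whole was split, with 4 markers higher and 5 lower, a median of -0.14 and 0 of 9 above 8.34 on all arrays. Its summed intensity was 621 in the DHH-cre KO, against 2694 to 3978 in the NGN-cre KOs and 1042 in the control, and most of that gap came from these 2 genes. The part of epididymis tissue in the Adam7 values was not tested. Adam28, known from epididymis and lymphocytes, differed by 0.48 on the row used and 0.01 on its other row.

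**Figure D3:**
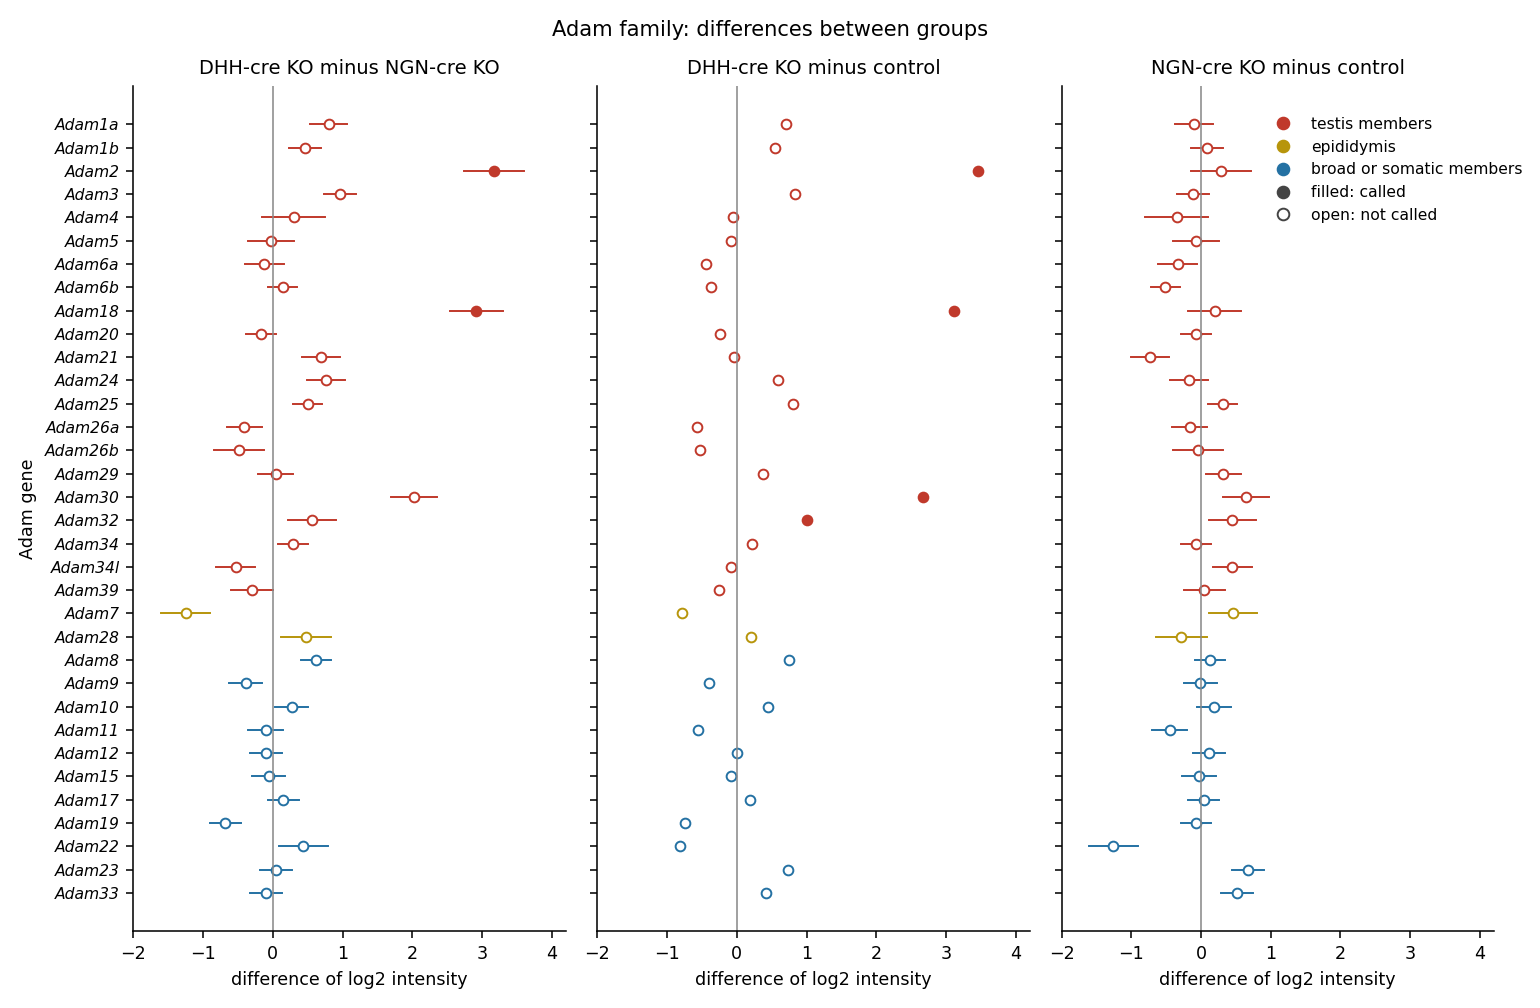
Differences of log2 intensity (x axis) of the 34 Adam genes (rows), for DHH-cre KO minus NGN-cre KO, DHH-cre KO minus control and NGN-cre KO minus control; bars are 1 SE from limma, and the middle panel has none because 1 array stands on each side. Filled points passed limma or, in the middle panel, the size rule: Adam2 and Adam18 on the left, these with Adam30 and Adam32 in the middle, and none on the right.

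The second comparison set the DHH-cre KO array against the control, 1 array against 1. No test was made, and a gene was counted at a change of 2-fold or more that also exceeded the spread from lowest to highest of the NGN-cre KOs. In the DHH-cre KO 4 of 34 members were counted as higher and 0 as lower, against 5.55% of all transcripts counted as higher, 4.81% as lower and 10.4% in all. All 4 are testis members: Adam2 at 3.46, Adam18 at 3.12, Adam30 at 2.67 and Adam32 at 1.01. With the pseudocount the first 3 were 2.43, 2.39 and 1.54, since their control values lie within the range of olfactory receptor transcripts. This comparison shares the DHH-cre array with the first, so it is not a second observation of it.

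Adam32, another catalytically inactive testis member, had a log2 intensity of 8.61 in the DHH-cre KO, against 7.60 in the control, with 8.45, 8.08 and 7.61 in the NGN-cre KOs. Here the knockout groups nearly met, and the difference between them was 0.56 (SE 0.34; limma, adjusted p = 0.437). Adam32 stood at the edge of the size rule, and with arrays centred on their medians its difference of 0.99 no longer counted. Just outside the rule were Adam3 at 0.84 and Adam25 at 0.80. The median over the testis members was 0.22 with 11 of 21 higher, over the broad or somatic members 0.00 with 6 of 11 higher, and over all named genes -0.02.

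None of the 11 broad or somatic members was counted, with differences from -0.82 for Adam22 and -0.75 for Adam19 to 0.75 for Adam8. Macrophages, which express Adam8, had a summed marker intensity of 8574 in the DHH-cre KO, 7784 to 10514 in the NGN-cre KOs and 5996 in the control. Their part in the Adam8 values was not tested.

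The third comparison set the NGN-cre KOs against the control. Of the 34 members 0 were called, as were 0 of 25631 transcripts (0%). At an unadjusted p under 0.05 there were 4 of 34 members (11.8%), against 7.86% of all transcripts (4.65% higher and 3.21% lower). These were Adam22, Adam21 and Adam6b, lower in the NGN-cre KOs, and Adam23, higher. The testis members that stood out in the DHH-cre KO differed by 0.29 (Adam2, SE 0.43), 0.20 (Adam18, SE 0.38), 0.64 (Adam30, SE 0.33) and 0.45 (Adam32, SE 0.34). For Adam30 and Adam32 all 3 NGN-cre arrays lay above the control, by as little as 0.01 for Adam32 in replicate 3.

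Adam22 and Adam23 encode catalytically inactive receptors for LGI proteins, known best from synapses, and they differed in opposite directions. Adam22 had 9.20, 9.11 and 9.93 in the NGN-cre KOs, against 10.67 in the control, with 9.85 in the DHH-cre KO. All knockout arrays lay below the control, at a log2 difference of -1.26 for the NGN-cre KOs (SE 0.35; limma, adjusted p = 0.452). Its other row differed by -1.04. Without NGN-cre replicate 3 the difference was -1.52 and passed (limma, adjusted p = 0.0374), the lowest of 11 alternatives, of which the highest was 0.818. Leaving out that replicate gave 238 calls over 25631 transcripts in this comparison, against 0 with all arrays.

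Adam23 had 11.74, 11.88 and 11.60 in the NGN-cre KOs, against 11.06 in the control, with 11.79 in the DHH-cre KO, so all knockout arrays lay above the control (log2 difference 0.68, SE 0.23; limma, adjusted p = 0.540). Adam33, of smooth muscle and mesenchyme, had 10.77, 10.99 and 10.73 in the NGN-cre KOs, against 10.31 in the control (limma, adjusted p = 0.657), and 10.73 in the DHH-cre KO. Among testis members, Adam21 had 6.42, 6.87 and 6.35 in the NGN-cre KOs, against 7.27 in the control and 7.23 in the DHH-cre KO (limma, adjusted p = 0.586). Adam6b, whose values lay below 5.24 on every array, had 4.64, 4.59 and 4.70 in the NGN-cre KOs, against 5.15 in the control (limma, adjusted p = 0.634), with 4.78 in the DHH-cre KO.

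Position in the genome gives another view of the family. On the RefSeq assembly 14 of the 34 genes lie on chromosome 8, and Adam18, Adam3, Adam5, Adam32 and Adam9 follow each other there with no other coding gene between them. Within this run, Adam18 differed between the DHH-cre and NGN-cre KOs by 2.92, Adam3 by 0.96, Adam5 by -0.02, Adam32 by 0.56 and the broadly expressed Adam9 by -0.39. Only Adam18 of these passed. The other 9 Adam genes of the chromosome, all testis members, had differences from -0.53 to 0.76, none of which passed. Adam2, on chromosome 14, and Adam30, on chromosome 3, have no Adam gene as a direct neighbour.

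**Figure D4:**
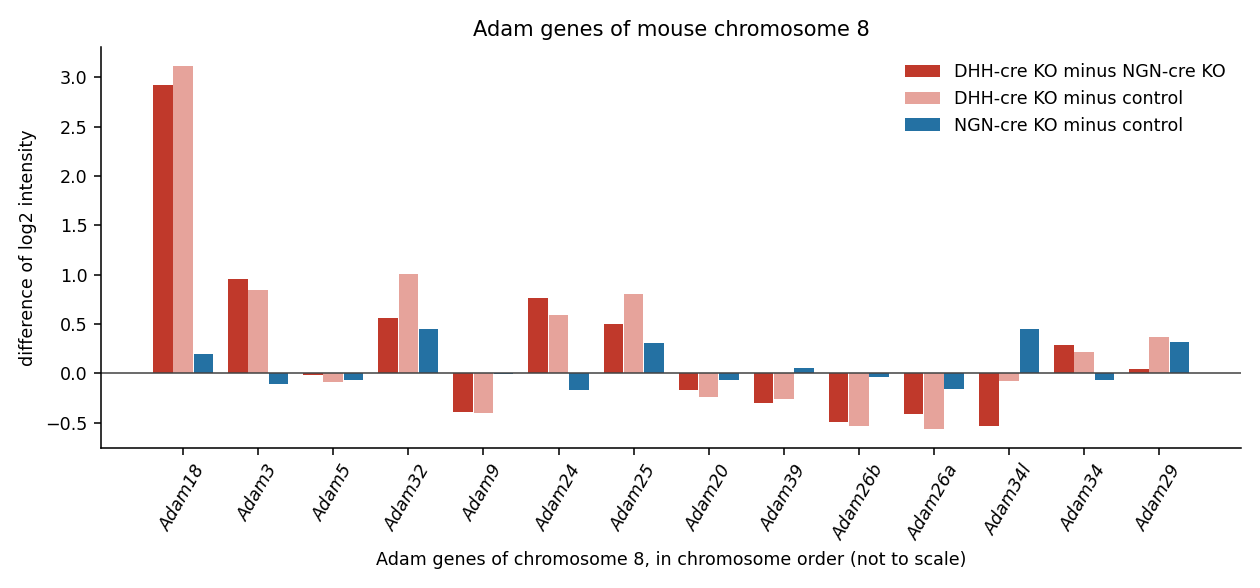
Differences of log2 intensity (y axis) for the 14 Adam genes of chromosome 8, in the order of the RefSeq assembly (x axis, not to scale), with 1 bar for each comparison. Adam18 reaches 2.92 and 3.12 in the comparisons with the DHH-cre array, while its neighbours Adam3, Adam5, Adam32 and Adam9 lie between -0.40 and 1.01.

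Genes that act with ADAM proteins were taken from 4 lists. Of 12 measured genes that fold or mature sperm ADAM proteins, 0 passed in either limma comparison. Against the control, 2 of 12 were counted as higher in the DHH-cre KO and 0 as lower, against 5.55% and 4.81% of all transcripts. These were Tex101 and Ly6k, partner proteins needed for ADAM3 on mouse sperm. Tex101 had 14.83 in the DHH-cre KO, 14.19, 14.40 and 13.96 in the NGN-cre KOs and 13.18 in the control, so all knockout arrays exceeded the control. Ly6k had 9.60 in the DHH-cre KO, 8.09, 8.63 and 8.04 in the NGN-cre KOs and 8.22 in the control (DHH-cre against NGN-cre, limma, adjusted p = 0.0851). The chaperone genes Clgn and Calr3, also needed for ADAM3, differed by 0.75 and 0.78 between the knockouts. Ly6k passed without NGN-cre replicate 3, which gave 1 call on this list and 1321 over 25631 transcripts, against 257 with all arrays.

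Of 19 measured regulators of ADAM10 and ADAM17, 0 passed in either limma comparison. Tspan17, a tetraspanin that escorts ADAM10, had 10.24 in the DHH-cre KO, against 13.15, 12.80 and 11.75 in the NGN-cre KOs and 12.97 in the control. The DHH-cre array was the lowest, at -2.32 from the NGN-cre KOs (limma, adjusted p = 0.0846). Against the control, 1 of 19 regulators was counted as lower, Tspan17 at -2.72, and 0 as higher, against 4.81% and 5.55% of all transcripts. Without NGN-cre replicate 3, Tspan17 and the Wnt antagonist gene Sfrp1 passed, 2 in all. That fit called 1321 of 25631 transcripts, against 257 with all arrays.

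Of 20 substrates of these proteases, 0 passed as higher and 1 as lower in the DHH-cre KO than in the NGN-cre KOs, and 0 passed in the NGN-cre KOs against the control. Between the knockouts 0.273% of all transcripts passed as higher and 0.730% as lower. The substrate that passed was Cdh1, which encodes E-cadherin, at 11.26 in the DHH-cre KO, against 13.58, 13.32 and 12.84 in the NGN-cre KOs (log2 difference -1.99, limma, adjusted p = 0.0484), with 11.95 in the control. The call was lost without NGN-cre replicate 1 (limma, adjusted p = 0.119) or replicate 2 (limma, adjusted p = 0.0645). It was also lost with the pseudocount (limma, adjusted p = 0.0661), with dim transcripts removed (adjusted p = 0.0533) and with the floor (adjusted p = 0.197). Without replicate 3, Cdh1 also passed as higher in the NGN-cre KOs than in the control. In that last comparison 238 of 25631 transcripts passed without replicate 3, against 0 with all arrays. Against the control, 2 of 20 substrates were counted as lower in the DHH-cre KO and 0 as higher, against 4.81% and 5.55% of all transcripts. These were the growth factor gene Btc at -1.90 and the Notch ligand gene Dll1 at -1.02. Of 12 integrins and tetraspanins that bind disintegrin domains, 0 passed in either limma comparison, and Itga6 was counted lower in the DHH-cre KO than in the control, at -1.09.

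Marker lists of germ cell stages went in different directions on the DHH-cre array. The 12 markers of pachytene and later germ cells had a summed intensity of 43188 in the DHH-cre KO, against 24369 to 33438 in the NGN-cre KOs and 25262 in the control, with none below 5.24 on all arrays. Between the knockouts 1 of 12 was called, Crisp2, a sperm protein of the CAP family, with 8.56 in the DHH-cre KO against 6.03, 5.94 and 5.69 in the NGN-cre KOs and 6.19 in the control (log2 difference 2.68; limma, adjusted p = 0.0156). Pgk2, a glycolytic gene of the same list, had a difference of -1.08 and did not pass (limma, adjusted p = 0.108). Without NGN-cre replicate 3 the list had 3 calls, Crisp2, Pgk2 and Tcp11, in a fit that called 1321 of 25631 transcripts, against 257 with all arrays. The 9 measured meiotic prophase markers summed to 187524 in the DHH-cre KO, 115585 to 149371 in the NGN-cre KOs and 91384 in the control. The 11 spermatid markers summed to 2079, 2125 to 2480 and 1928 in the same order. Most spermatid markers were lower than in the control, 9 of 11 in the DHH-cre KO (median -0.24) and 8 of 11 in the NGN-cre KOs (median -0.17). Between the knockouts 0 of 9 prophase markers were called (3 without NGN-cre replicate 3) and 0 of 11 spermatid markers (1 without that replicate). An intensity trend in the variance model called 4 prophase, 2 pachytene and later and 1 spermatid markers with all arrays kept. That fit called 729 of 25631 transcripts. In the DHH-cre KO against the control, the size rule counted 7 of 9 prophase markers as higher (median 1.68). It also counted 3 of 12 pachytene and later markers and 2 of 11 spermatid markers as higher, against 5.55% of all transcripts. As lower it counted 1 of 11 spermatid markers and 7 of 11 undifferentiated spermatogonia markers, against 4.81%. All 9 prophase markers were above the control in the mean of the NGN-cre KOs too, with a median of 0.86. In whole testes, more cells of a stage and more RNA per cell cannot be told apart, and the part of cell composition in the Adam values was not tested.

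The lists of other cells differed by unequal amounts on the DHH-cre array. Against the NGN-cre KOs their medians were -0.57 for undifferentiated spermatogonia (1 of 11 called lower), -0.20 for differentiating spermatogonia (0 of 4), -0.37 for Sertoli cells (2 of 10 called lower), 0.48 for Leydig cells (1 of 7 called higher and 1 lower), -0.15 for macrophages (0 of 6), -0.07 for peritubular myoid cells (0 of 5), -0.44 for endothelium (0 of 5) and -0.99 for erythroid cells (1 of 5 called lower). The median over all named genes was 0.00, and of all transcripts 0.273% were called higher and 0.730% lower. Several of these counts depended on 1 NGN-cre array. For undifferentiated spermatogonia the count was 0 without replicate 1 or 2 and 4 without replicate 3. Without replicate 1 or 2 it was 1 for Sertoli cells and 1 for Leydig cells, and without replicate 1 it was 0 for erythroid cells. Over all 25631 transcripts the count was 257, against 38, 191 and 1321 without replicates 1, 2 and 3.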

How the data were processed

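RNA from whole testes was hybridised to 5 single-colour Cy3 NimbleGen mouse expression arrays, per the labels' protocols. The authors deposited 1 linear intensity per transcript and array, and RMA is named without a version in the submitters' processing notes. RMA corrects background, equalises arrays and summarises probes, so a global shift of RNA cannot be seen. Probe positions are not given in the sources used here. Here log2 of the deposited intensities was taken, with no pseudocount and no filter. Rows were named through RefSeq accessions without versions (assembly GRCm38.p6): 17780 of 25631 rows matched 1 symbol, 0 several and 7851 none.

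Groups were compared with limma 3.58.1 in R 4.3.3 (lmFit, eBayes, 1 mean per group over all 5 arrays, two-sided, Benjamini-Hochberg over all rows, adjusted p under 0.05), tested on simulated data. Spread was estimated from the NGN-cre KOs (2 residual degrees of freedom), and the lone DHH-cre and control arrays were assumed to vary like them. The labels name no separate animals, so p-values reflect variation between arrays that may be technical. Precision is limited by having 5 arrays. With 3 arrays against 1, the smallest exact permutation p is 0.25. The DHH-cre KO against the control was described by the size rule (2-fold and beyond the NGN-cre range). Members and lists were chosen with earlier results of these data known. Values on every array are given for members called or counted, the 3 largest differences of each class in a comparison, and Adam2, Adam18, Adam7, Adam10 and Adam17. From the lists, some genes are named, several by their difference alone, and most cell type lists are given only as counts, medians or sums. Alternatives changed the variance model, normalization, scaling, pseudocount (50), dim-transcript filter, floor, arrays in the fit, and left out each NGN-cre replicate.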

Additional observations from a re-analysis of the deposited data

Results flagged for a closer look

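Adam2 and Adam18 stood out because 1 DHH-cre KO array differed from the 3 NGN-cre KO arrays in limma. The DHH-cre KO array lay above the NGN-cre KOs by 3.17 (SE 0.43) for Adam2 and by 2.92 (SE 0.38) for Adam18 on the log2 scale (limma, Benjamini-Hochberg adjusted p = 0.0369 and adjusted p = 0.0328), with the DHH-cre value above 3 of 3 NGN-cre arrays in both. Against the control, the differences were 3.46 in the DHH-cre KO and 0.29 in the NGN-cre KOs for Adam2, and 3.12 and 0.20 in the same order for Adam18. The DHH-cre KO is 1 array, so that array and the genotype cannot be told apart. Without NGN-cre replicate 1 neither call held (limma, adjusted p = 0.0894 for Adam2 and adjusted p = 0.0524 for Adam18). That fit called 38 of 25631 transcripts, against 257 with all arrays.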

How the results depend on the processing

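In the comparison of DHH-cre with NGN-cre KOs 2 Adam members were called, and the alternatives gave 2 or 3 except for 2 settings with 0. These were a floor at the median of olfactory receptor transcripts, which left 0 of 25631 transcripts called (adjusted p = 0.167 for Adam2 and adjusted p = 0.184 for Adam18), and leaving out NGN-cre replicate 1. Leaving out 1 NGN-cre array at a time gave 0 to 3. The calls of both genes held under 9 of 11 alternatives. For the NGN-cre KOs against the control the count was 0, and 0 to 1 when 1 NGN-cre array was left out, the 1 being Adam22 without replicate 3. An intensity trend in the variance model, which called 66 transcripts there, called 0 members. The DHH-cre array against the control kept 3 or 4 counted members under all alternatives. With a pseudocount of 50 the differences of dim members were smaller, as given above for Adam2, Adam18 and Adam30.

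Signs turned for small differences that no setting called, when 1 NGN-cre array was left out. Between the knockouts the values then ran from -0.06 to 0.50 for Adam4, -0.18 to 0.21 for Adam5, -0.27 to 0.02 for Adam6a, -0.20 to 0.01 for Adam11, -0.14 to 0.05 for Adam15, -0.02 to 0.13 for Adam23 and -0.08 to 0.14 for Adam29. For the NGN-cre KOs against the control they ran from -0.55 to 0.01 for Adam4, -0.30 to 0.10 for Adam5, -0.10 to 0.07 for Adam9, -0.14 to 0.05 for Adam15, -0.02 to 0.09 for Adam17, -0.04 to 0.46 for Adam18, -0.25 to 0.21 for Adam26b and -0.12 to 0.22 for Adam39. Over all transcripts, 257 were called between the knockouts, against 729 with the trend, 97 with the pseudocount, 38 without replicate 1 and 1321 without replicate 3, and 238 for the NGN-cre KOs against the control without replicate 3. Causes were not tested. Transcripts near the median of olfactory receptor transcripts have no measurable order, which limits 6 testis members on all arrays. No paired analysis was possible because the labels give the groups no shared replicate numbers.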
